A study of Mus musculus and Rattus norvegicus with 18 samples.

Results

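Ribosome footprints on short reading frames that lie upstream of the longest reading frame of their gene were examined in mouse heart. The heart Ribo-seq table lists 26398 frames of 17866 genes. For each gene the frame with the most codons was taken as its longest frame, and every other frame that ends before the first position of that frame was kept. This left 4178 upstream frames in 3023 genes. A further 4354 frames are neither the longest nor wholly upstream of it. The frames were chosen by length and position alone, without their footprint counts.

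The hearts came from 4-week-old C57BL/6 mice of the genotypes Ctrl and M1cKO (cKO below), with 2 Ribo-seq and 2 RNA-seq libraries of each genotype. The series names the deleted gene as Mettl1. The labels give neither the alleles of the Ctrl mice nor the promoter or cell type that drives the deletion, and do not say whether a library is 1 animal or a pool. They do not name separate animals for the replicates either, so the spread behind every p-value is that between libraries and may be technical. H9C2 cell and tRNA libraries of the series were not used here.

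Mettl1 is the methyltransferase that, together with Wdr4, places 7-methylguanosine on a set of tRNAs. A scanning ribosome that meets a start codon upstream of the main coding sequence can translate a short peptide there, and it must then reinitiate, or have passed the first start by leaky scanning, to reach the main frame. Upstream frames of this kind are best known from the stress response genes Atf4 and Atf5, where they hold back the main protein until initiation is slowed. Other upstream frames make small proteins of their own.

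Neither Mettl1 nor Wdr4 has an upstream frame in the table. Footprints on the Mettl1 frame were 6.21 and 6.58 CPM (counts scaled to the same library size) in the Ctrl libraries and 2.2 and 2.19 in the cKO libraries (log2 fold change -1.54, adjusted p = 0.000149). Mettl1 RNA was 4.31 and 3.76 CPM against 2.49 and 2.52 (log2 fold change -0.69, adjusted p = 0.0664). The Ribo libraries hold 25171650 to 39675627 footprints on frames, and the RNA libraries 15052652 to 16844783 reads on genes. Of the marker lists, 5 of 5 cardiomyocyte markers were expressed, with 0 higher and 2 lower in cKO RNA. The 3 erythroid markers were all called higher, with summed levels of 1348 and 1467 CPM in Ctrl and 2303 and 1474 CPM in cKO. The skeletal muscle list summed to 1908 and 1783 CPM in Ctrl and 2741 and 3045 CPM in cKO, with 1 of 2 tested genes higher and 2 of its 4 genes under 0.5 CPM. In each of the endothelial, fibroblast, macrophage and pericyte lists 0 genes were higher, and 2 of 4 endothelial genes were lower (summed 1263 and 1353 CPM in Ctrl, 1145 and 1161 in cKO). The part of cell composition in the results below was not tested, and in whole heart fewer cells of a type and less RNA per cell cannot be told apart.

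The upstream frames were short and mostly unspliced. They had a median of 29 codons (quartiles 19 and 47, range 10 to 659), against a median of 419 codons for the longest frames of the same genes. At most 100 codons were found in 95.3% of them. By position, 76.2% had a genome span equal to their coding length, and so held no intron, against 21.2% of longest frames. The distance from the end of the upstream frame to the first base of the longest frame had a median of 243.5 bases of genome sequence (quartiles 59 and 2120.5, introns included), and 615 frames ended under 30 bases before it. Most genes (2209) had a single upstream frame, 574 had 2, and 8 had 6. The imprinted noncoding RNA gene Peg13 had the most, with 10, of which 8 were tested and 0 called by edgeR (lowest adjusted p = 0.272). The longest were 659 and 637 codons in the predicted gene Gm8989, both with 0 footprints, followed by frames in Prdm11, Auts2 and Btbd8. Prdm11 had 63, 99, 71 and 59 footprints on its frame in Ctrl 1, Ctrl 2, cKO 1 and cKO 2, Auts2 26, 29, 31 and 24, and Btbd8 4, 12, 7 and 13. None of these 3 passed the test between genotypes (adjusted p = 0.101, 0.608 and 0.99).

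The first codon could be read in RefSeq promoter windows (GRCm38.p6, 250 bases before to 50 after a gene start) for 664 upstream frames. All 664 began with ATG or a codon that differs from it at the first base. The start codons allowed when the frames were called are not given, so this set may have been fixed by the calling. ATG opened 447 frames (67.3%), CTG 124 (18.7%), GTG 54 (8.13%) and TTG 39 (5.87%). Of 1366 longest frames read in the same windows, 99.7% began with ATG. A purine 3 bases before the ATG, which favours initiation in vertebrates, was present at 64.0% of upstream ATGs and 87.4% of ATGs of longest frames. With a G directly after the ATG as well, the shares were 33.6% and 62.1%. The frames that begin with ATG had a median of 1.5 times the footprints per codon of their longest frame (201 frames with at least 100 footprints on both). Those that begin with CTG, GTG or TTG had a median of 0.639 times (88 frames). The minimum of 100 footprints leaves out sparse frames, above all short ones, so both medians hold for the denser frames only. Examples of both kinds among the frames described below are shown with 12 bases before the start codon, which is in capitals.
Acta2, 25 codons, chr19:34255499-34255528, minus strand: cagaacagaggaATGcagtggaagagaccc
Ifrd1, 52 codons, chr12:40223141-40223170, minus strand: ctagagagaaacATGtatcgtttccgctcg
Fhl2, 33 codons, chr1:43196727-43196756, minus strand: taaagcaacccaATGaagcccagggcctgc
Fhl2, 18 codons, chr1:43196900-43196929, minus strand: caggcaggccaaATGgggacgtgcatagca
Slco2b1, 46 codons, chr7:99706809-99706838, minus strand: tcagaggaattcATGgaaccaaagaaacag
Jph2, 58 codons, chr2:163397964-163397993, minus strand: gatctgagccgcATGcccactggggtggat
Dmpk, 15 codons, chr7:19083881-19083907, plus strand: ggacgggcagacATGcagctagggttc
Hspb8, 42 codons, chr5:116422815-116422833, minus strand: tttattaaactcCTGgctg

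Footprints were found on 3618 of the 4178 upstream frames, and 560 (13.4%) had none in any library. The median was 68 footprints over the 4 libraries, and 137 frames held the first 50% of all footprints on upstream frames. Over all footprints of the table, upstream frames took 0.905% and 0.852% in the Ctrl libraries and 0.900% and 0.946% in the cKO libraries. The genotypes overlapped, and an exact permutation test of the difference of 0.0447 percentage points gave p = 0.667 (two-sided, 6 splits; the smallest p that 2 against 2 libraries allow is 0.333). Without the 10 frames that hold most footprints the shares were 0.727% and 0.714% against 0.763% and 0.791%. Of the footprints of genes with an upstream frame, the shares were 4.14% and 3.94% against 4.19% and 4.31%. In both of these the cKO libraries lay above the Ctrl libraries, and the exact p was that smallest value. Among the 1582 pairs with at least 100 footprints on both, upstream frames often carried more footprints per codon than the longest frame. The median ratio was 1.87 and 64.3% were above 1. A short frame reaches 100 footprints only when it is dense. This minimum thus favours ratios above 1, and the values do not hold for the sparser upstream frames left out. For 480 upstream frames (11.5%) the count itself was higher than that of the longest frame, and for 114 of these the longest frame shares its start with another listed frame, so its reads may have been assigned elsewhere.

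**Figure D1:**
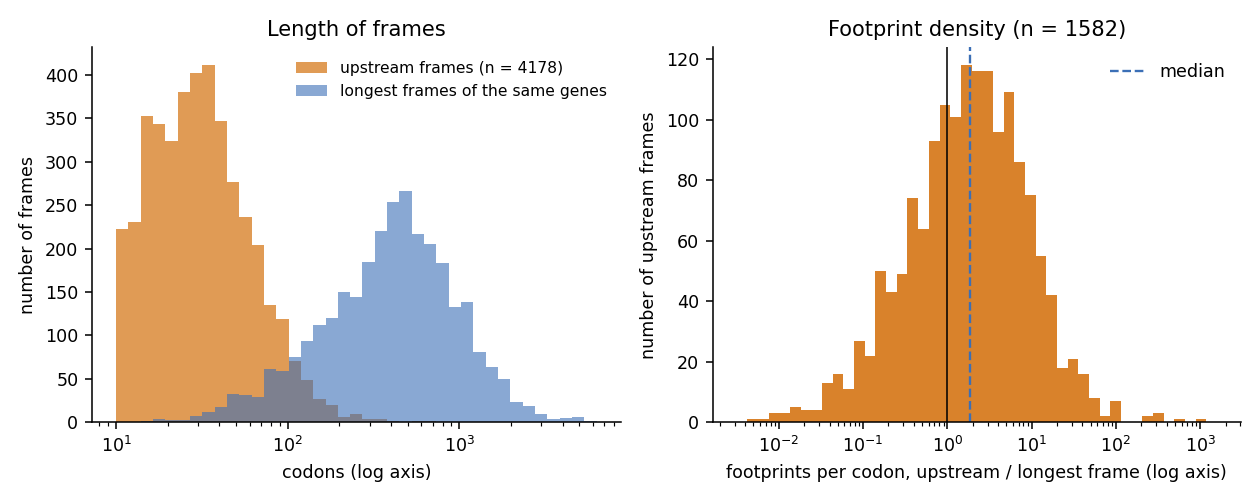
Left, codons (log axis) of the 4178 upstream frames and of the longest frames of the same genes, as numbers of frames. Right, footprints per codon of the upstream frame divided by those of the longest frame (log axis) for the 1582 pairs with at least 100 footprints on both; the dashed line is the median of 1.87 and the solid line marks 1. Most upstream frames are shorter than most longest frames, and 64.3% of the density ratios lie above 1.

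The densest frames relative to their longest frame were in Dmpk (15 codons, myotonic dystrophy kinase), Fam126a (18), Rmnd1 (23), Atp2a2 (11) and Dok7 (24). The Dmpk frame had 23 and 21.9 CPM in Ctrl and 26.2 and 22.6 in cKO, while the 631-codon frame listed as its longest had at most 0.996 CPM. The 11-codon frame of Atp2a2, which codes for the pump that refills the calcium store, had 23.3, 22.8, 21.3 and 22.6 CPM. Its 1044-codon longest frame had 4.8 to 9.27 CPM. In these 5 genes the frame taken as longest is thus not the one with most footprints. Adjusted p of the 5 frames between genotypes ranged from 0.137 to 0.867.

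By level, the highest was the 85-codon frame of Smpx, a small cytoskeletal protein of striated muscle. It had 329, 281, 274 and 309 CPM, with overlapping genotypes. The Smpx frame listed as longest, of 94 codons, had at most 0.741 CPM. The 85-codon frame thus counts as upstream by the length rule only, and whether it is the main coding sequence was not tested. Next came a 17-codon frame in the mitochondrial ribosomal RNA gene mt-Rnr1, a 29-codon frame of mt-Cytb (cytochrome b), a 58-codon frame of Jph2 (junctophilin, which ties the sarcoplasmic reticulum to the T-tubule), and frames of Selenop, Gpx1, Ivns1abp and Fhl2. The Jph2 frame had 144 and 114 CPM in Ctrl and 161 and 153 in cKO, above the 63.8 to 71.4 CPM on the 696-codon frame (log2 fold change 0.29 ± 0.10 SE, adjusted p = 0.0851). The genotypes did not overlap, but the difference did not pass the test; without Ctrl 1 it did (adjusted p = 0.00219).

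Of the 4178 upstream frames, 2739 had enough counts to be tested between genotypes together with all other frames. After adjustment over all 17188 frames tested, 100 upstream frames were higher in cKO and 62 lower, which is 3.65% and 2.26% of those tested. Of these, 22 and 3 had a library of the lower genotype under the filter minimum of 0.295 CPM, so they entered the test through the genotype in which they are higher. The background over all frames was 6.92% higher and 5.88% lower, both above the shares of upstream frames. Scaled by library totals alone, the calls split into 135 higher and 50 lower. The median log2 fold change of tested upstream frames was 0.06, against 0.00 over all frames. All libraries of one genotype lay above all of the other for 44.8% of tested upstream frames, against 53.3% of all frames. Precision followed depth among upstream frames: the median standard error of a log2 fold change was 0.14 for the 200 upstream frames with at least 1000 footprints and 0.48 for the 1417 with at least 50 and under 200.

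**Figure D2:**
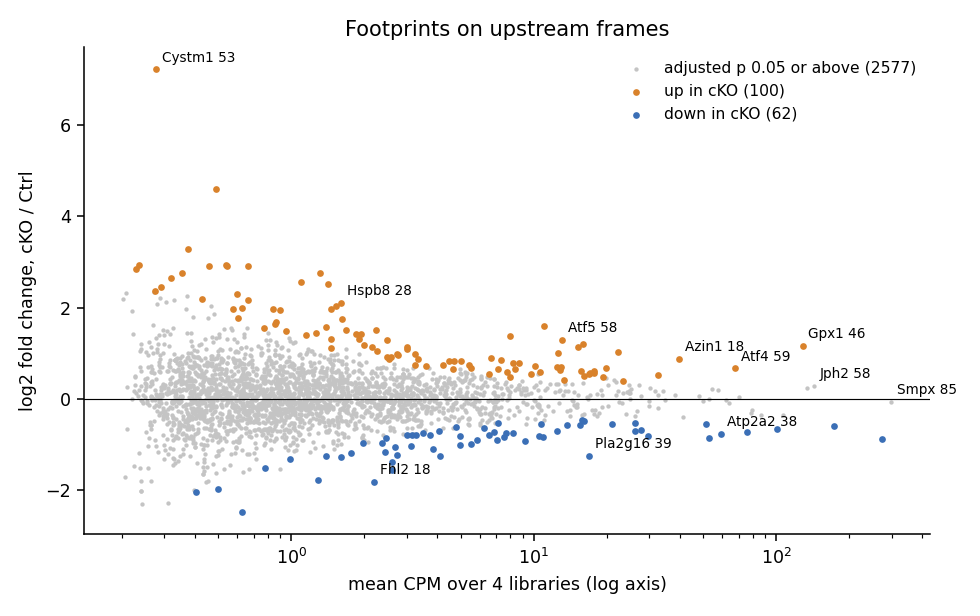
Mean footprints in CPM over the 4 libraries (log axis) against the log2 fold change, cKO over Ctrl, for the 2739 upstream frames tested. The 100 frames called higher in cKO and the 62 called lower are coloured, and labels give the gene and the codons of the frame. Cystm1 stands highest at a low level, and frames of high level such as Smpx and Jph2 lie near 0.

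RNA of the host gene was called in the same direction for most of the called frames. Of the 100 higher frames, 57 lay in genes whose RNA was higher in cKO, 41 in genes whose RNA was not called, and 2 (Acta2 and Fli1) in genes whose RNA was lower. The Fli1 call (adjusted p = 0.0458) was lost in DESeq2 (0.104), in limma-voom (0.0581) and without Ctrl 1, cKO 1 or cKO 2 (0.113 to 0.225). The Fli1 frame had only 1 Ctrl library at the filter minimum, so it passed the count filter only through cKO. Of the 62 lower frames, 40 lay in genes with lower RNA, 21 in genes not called and 1 in a gene not tested. Read from the RNA side, 25.9% of the 220 tested upstream frames in genes with higher RNA were called higher, and 13.7% of the 292 in genes with lower RNA were called lower. Over all genes 8.16% were higher and 6.26% lower in RNA.

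In genes of the integrated stress response known for upstream frames, the calls went up. Among 17 listed genes, 10 had 14 upstream frames. Of the 12 tested, 3 rose and 0 fell, with a median log2 fold change of 0.35 against 0.00 over all frames tested. Over all frames 6.92% rose and 5.88% fell, the shares to set beside the counts of this and the following lists. The 59-codon frame of Atf4, the main transcription factor of this response, had 51.9 and 52.5 CPM in Ctrl and 79.4 and 87.0 in cKO. All cKO values were above the Ctrl values (log2 fold change 0.67 ± 0.09 SE, adjusted p = 0.000157). The 288-codon frame listed as longest for Atf4 had only 1.09 to 4.03 CPM. Whether that frame is the main Atf4 coding sequence was not tested, so these values do not give the level of the main protein's frame. The 58-codon frame of Atf5, a related factor, had 8.15 and 7.04 against 17.8 and 19.2 CPM (1.29 ± 0.13, adjusted p = 1.92e-05), with RNA up by 0.65 on the log2 scale. A 52-codon frame of Ifrd1, a transcriptional regulator of muscle regeneration, had 14.1 and 10.8 against 20.1 and 17.7 CPM (0.61 ± 0.14, adjusted p = 0.00911). The main Ifrd1 frame rose more, from 33.4 and 23.1 to 70 and 58 CPM (1.19 ± 0.14), and the difference between both changes did not pass the test (adjusted p = 0.43). Without Ctrl 2 or cKO 1 the Ifrd1 call was lost (adjusted p = 0.0577 and 0.0939).

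Polyamine genes had 2 tested frames, of which 1 rose. It lies in Azin1, which codes for the antizyme inhibitor that protects ornithine decarboxylase, and has 18 codons. It had 29.9 and 26.1 CPM in Ctrl and 52.7 and 49.8 in cKO (0.88 ± 0.10, adjusted p = 4.71e-05). The Azin1 longest frame rose by 0.44 and its RNA by 0.43 on the log2 scale. Of the 6 frames tested in genes known for small proteins or bicistronic messages, 0 were called by edgeR or DESeq2, and 2 had an unadjusted p under 0.05 in edgeR. The lowest p was that of a 19-codon frame of Mief1, a mitochondrial fission factor, at 0.535 and 0.483 against 1.21 and 1.22 CPM (1.26 ± 0.42, adjusted p = 0.0677). The 70-codon frame of the same gene had 0 footprints in all 4 libraries.

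Signalling kinases and their regulators had 42 tested frames, of which 3 rose and 0 fell (median log2 fold change -0.12). The 69-codon frame of Pik3r1, the regulatory subunit of phosphoinositide 3-kinase, had 10.3 and 9.39 CPM in Ctrl and 15.6 and 16.5 in cKO (0.71 ± 0.13, adjusted p = 0.00202). RNA of Pik3r1 changed by -0.04 (adjusted p = 0.757) and its longest frame by -0.20 (adjusted p = 0.134). The 21-codon frame of Bmpr2, a receptor for bone morphogenetic proteins, had 6.50 and 6.73 against 9.19 and 9.46 CPM (0.49 ± 0.15, adjusted p = 0.0446). The Bmpr2 call was lost without any 1 library (adjusted p = 0.0731 to 0.207).

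Of 17 tested frames in sarcomere and calcium handling genes, 4 fell, 13 were not called and 0 rose, with a median log2 fold change of -0.08. The 38-codon frame of Atp2a2 fell from 77.2 and 71.6 to 43.1 and 45 CPM (-0.75 ± 0.09, adjusted p = 6.33e-05), with RNA at -0.36. Frames of Ryr2 (43 codons, the calcium release channel), Hrc (15 codons, a calcium binding protein of the same store) and Jph2 (31 codons) changed by -1.04 ± 0.26, -0.73 ± 0.22 and -0.62 ± 0.19. The Ryr2 frame had 3.99 and 3.2 against 1.63 and 1.85 CPM, with no overlap. RNA of Ryr2 and Hrc fell as well (-0.34 and -0.39), and that of Jph2 changed by -0.11 (adjusted p = 0.207). The Ryr2 call was lost without Ctrl 1 or cKO 1 (adjusted p = 0.0716 and 0.0859), and those of Hrc and Jph2 without any 1 library (0.0537 to 0.209). Cardiac transcription factors had 25 tested frames, 1 higher and 1 lower. The 97-codon frame of Gata4, an early cardiac factor, had 0.823 and 0.996 against 2.32 and 1.68 CPM (1.13 ± 0.34, adjusted p = 0.0429), a call lost without Ctrl 1, Ctrl 2 or cKO 1 (0.123, 0.0618 and 0.344). The 18-codon frame of Esrrb, an orphan nuclear receptor, had 5.51 and 5.01 against 2.59 and 2.30 CPM (-1.10 ± 0.21, adjusted p = 0.00307).

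Fuel and mitochondrial genes had 22 tested frames, 1 higher and 2 lower. The higher one is the 10-codon frame of Slc16a1, the monocarboxylate transporter of lactate and ketone bodies, which ends 1 base before the main frame. It had 17.2 and 12.2 CPM in Ctrl and 28.3 and 31.6 in cKO (1.04 ± 0.14, adjusted p = 0.000208), with its longest frame at 535, 462, 552 and 530 CPM (0.12 ± 0.08, adjusted p = 0.434). The 24-codon frame of Acsl1, which activates long-chain fatty acids, had 90.4 and 98.3 against 44.5 and 70.6 CPM (-0.72 ± 0.15, adjusted p = 0.00551). An 18-codon frame of Acacb, the acetyl-CoA carboxylase of muscle, fell by 0.78 on the log2 scale (adjusted p = 0.0455). The Acsl1 call was lost without cKO 1 (adjusted p = 0.0534) and the Acacb call without Ctrl 1, cKO 1 or cKO 2 (0.146, 0.262 and 0.0749).

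The other lists held at most 2 called frames each. Over all frames tested 6.92% were higher and 5.88% lower. With lists this small, 1 or 2 calls cannot be told apart from those shares. In p53, ubiquitin and autophagy genes 2 of 11 tested rose: a 17-codon frame of the p53 target Eda2r (2, 7, 50 and 40 footprints) and a 21-codon frame of Ccng1, another p53 target (0.53 ± 0.11, adjusted p = 0.00459). The Eda2r frame passed the count filter only through cKO. When every frame of at least 1 count was tested, its adjusted p was 1.36e-05. That setting also lowered the adjusted p of well covered frames at nearly the same fold change (Acsl1, from 0.00551 to 1.44e-11). Its values, here and for Tgfb2 below, are thus no independent support. Eda2r RNA rose by 2.12. Translation factors had 1 lower of 12, a 22-codon frame of Eif4g2 (13.1 and 14.9 against 6.84 and 8.89 CPM, -0.84 ± 0.15, adjusted p = 0.00218). Clock genes had 1 higher of 11, the 63-codon frame of Nr1d1 (0.59 ± 0.16, adjusted p = 0.0207). Secreted stress factors had 1 higher of 10, a 13-codon frame of Tgfb2 (8, 3, 46 and 29 footprints), which had only 1 Ctrl library above the filter minimum (adjusted p = 0.00162 with every frame of at least 1 count). Membrane receptors and transporters had 1 higher of 15, in the amino acid transporter Slc38a2 (5.23 and 5.22 against 9.04 and 9.94 CPM, 0.86 ± 0.16), and 1 lower, in the adrenergic receptor Adra1a (8.11 and 5.25 against 3.83 and 2.70 CPM, -1.01 ± 0.24). Of 11 frames in ion channel genes 0 were called by edgeR or DESeq2, with 3 at an unadjusted edgeR p under 0.05 and a median log2 fold change of -0.43. Of 6 in tRNA modification genes 0 were called by either tool, 1 had an unadjusted p under 0.05, and values ran from -1.18 to 1.08. The Nr1d1 call was lost without Ctrl 1, cKO 1 or cKO 2 (adjusted p = 0.107, 0.126 and 0.0603), the Tgfb2 call without Ctrl 2 or cKO 1 (0.148 and 0.187), and the Adra1a call without Ctrl 1 or cKO 2 (0.0993 and 0.0802). DESeq2 did not call the frames of Bmpr2 (adjusted p = 0.107), Hrc (0.0926), Jph2 with 31 codons (0.1), Gata4 (0.106), Acsl1 (0.165) and Acacb (0.101). Scaling by library totals also ended the calls of Hrc (0.0637), Jph2 (0.0729) and Acacb (0.0683).

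**Figure D3:**
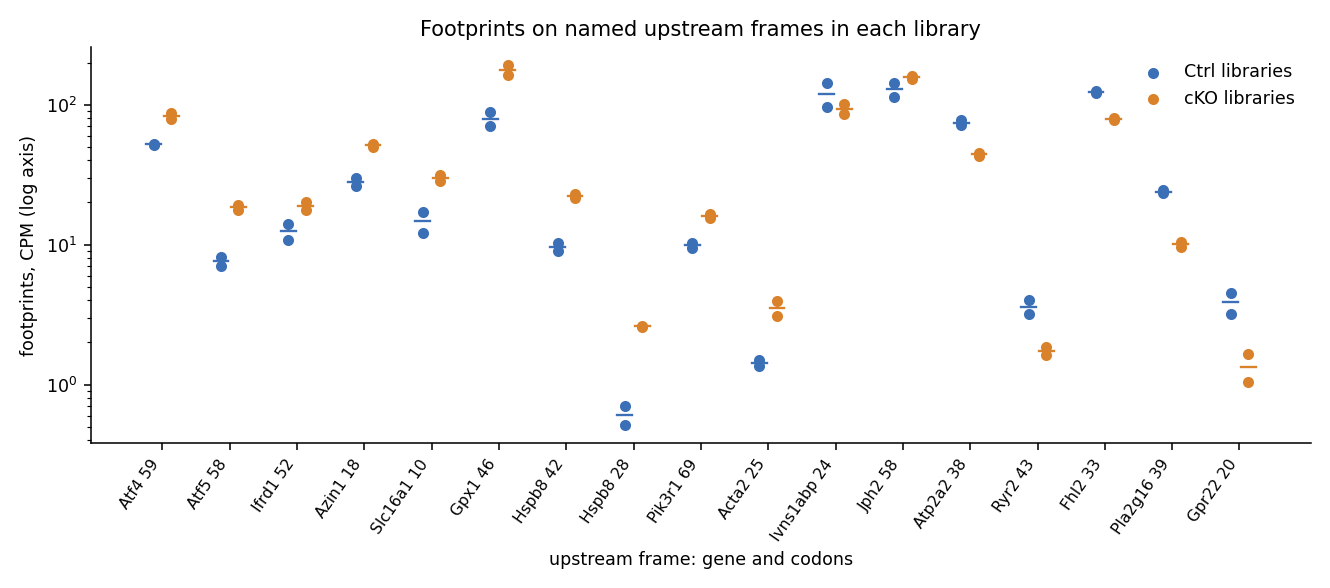
Footprints in CPM (log axis) on 17 named upstream frames, labelled by gene and codons, in each Ctrl and cKO library; short lines are the means of 2 libraries. The Atf4, Atf5, Azin1, Gpx1 and Hspb8 points are higher in both cKO libraries, the Atp2a2, Fhl2, Pla2g16 and Gpr22 points lower, and the genotypes of the Ivns1abp frame overlap.

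In selenoprotein genes, a list added after the table was seen, a UGA codon inside the coding sequence, elsewhere a stop, is read as selenocysteine. The 7 upstream frames in such genes were all tested, and 2 rose. The 46-codon frame of Gpx1, the main cytosolic glutathione peroxidase, had 70.3 and 88.2 CPM in Ctrl and 164 and 191 in cKO (1.16 ± 0.11, adjusted p = 7.48e-06). Its 145-codon frame, 27 bases downstream, rose from 40.3 and 39.4 to 54.1 and 56.1 CPM (0.47 ± 0.09), and Gpx1 RNA rose by 0.74. The difference between both frames was 0.70 ± 0.25 (adjusted p = 0.293). A 37-codon frame of Selenoh, a redox protein of the nucleolus, had 9.59 and 10.4 against 16.8 and 14.2 CPM (0.63 ± 0.14, adjusted p = 0.00619), a call lost without cKO 1 (adjusted p = 0.118). The 58-codon frame of Selenop, the secreted selenium carrier, ends 3 bases before its longest frame, as does that of Selenoh. It had 126 and 120 against 147 and 145 CPM (0.25 ± 0.08, adjusted p = 0.0569, and 0.0432 without Ctrl 1). The stop codons of these frames were not read, and whether an upstream frame and the longest frame of these genes belong to 1 coding sequence was not tested. The values above thus need not be those of separate upstream frames.

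The 2 upstream frames of the mitochondrial genome, where the code differs from that of the nucleus, were both lower. The mt-Rnr1 frame had 474 and 231 CPM in Ctrl and 168 and 216 in cKO (-0.88 ± 0.22, adjusted p = 0.0152). Ctrl 1 stood apart, and without it the change was -0.27 (adjusted p = 0.146). The mt-Cytb frame had 242 and 171 against 132 and 144 CPM (-0.58 ± 0.12, adjusted p = 0.00612), and changed by -0.31 without Ctrl 1 and by -0.81 without Ctrl 2. DESeq2 called neither (adjusted p = 0.358 and 0.14). The longest frames of both genes changed by -0.70 and -0.55. The gene mt-Rnr1 codes for a ribosomal RNA. Whether the reads on these 2 frames come from translation of a separate upstream frame was not tested.

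The largest rises among named genes with a mean of at least 1 CPM were in Mir99ahg (40 codons, 2.77 ± 0.39), the actin-binding adaptor gene Sorbs2 (11 codons, 2.52 ± 0.46), Hspb8, Upp1 (uridine phosphorylase, 22 codons, 2.03 ± 0.34), Gpatch4 (18 codons, 1.75 ± 0.38), Pak6 (33 codons, 1.60 ± 0.15), Fat1 (16 codons, 1.59 ± 0.36) and Grk5 (46 codons, 1.52 ± 0.35), a receptor kinase of the heart. RNA of these genes rose by 0.54 to 1.43, except Grk5, at 0.13 (adjusted p = 0.262). The Sorbs2 frame had 17, 6, 105 and 77 footprints, with only 1 Ctrl library at the filter minimum, so it passed the count filter only through cKO. Its change was 3.70 without Ctrl 1 and 1.77 without Ctrl 2, so its place in this order rests on 1 library. The Gpatch4 change was 2.60 without Ctrl 2. The Grk5 frame had 0.864 and 0.876 against 3.14 and 1.85 CPM, and its call was lost without cKO 1 (adjusted p = 0.188). The Fat1 call was lost without Ctrl 2 or cKO 1 (0.0523 and 0.0609).

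Hspb8, a small heat shock protein that works with Bag3 in protein quality control, had 3 upstream frames, and all 3 were higher. The frame nearest to the main start, of 28 codons, had 17, 17, 107 and 90 footprints, or 0.700 and 0.513 against 2.64 and 2.56 CPM (2.11 ± 0.34, adjusted p = 0.00073). The 42-codon frame that opens with CTG had 10.2 and 9.06 against 21.7 and 22.8 CPM (1.21 ± 0.12, adjusted p = 1.48e-05). The 17-codon frame between them had 15.7 and 13 against 20.7 and 21.6 CPM (0.56 ± 0.12, adjusted p = 0.00682; 0.0602 without cKO 2). The main frame and the RNA rose by 1.08 and 1.03. None of the 3 differed from the main frame beyond the test (adjusted p = 0.24, 0.911 and 0.439). In 7 genes at least 2 upstream frames were called, and in 0 of these did the calls go in opposite directions. Of these, chosen after their values were seen, Psmb10, an immunoproteasome subunit, had 2 higher frames that overlap each other (1.14 ± 0.29 and 1.13 ± 0.25), and Perm1, a muscle regulator of oxidative genes, 2 lower ones (-0.80 ± 0.16 and -0.54 ± 0.14). Without 1 library, calls were lost for the Psmb10 frame of 41 codons (Ctrl 1, 0.0641; cKO 1, 0.165), that of 27 codons (cKO 2, 0.0828) and the Perm1 frame of 45 codons (Ctrl 2, 0.07; cKO 1, 0.0809; cKO 2, 0.131).

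**Figure D4:**
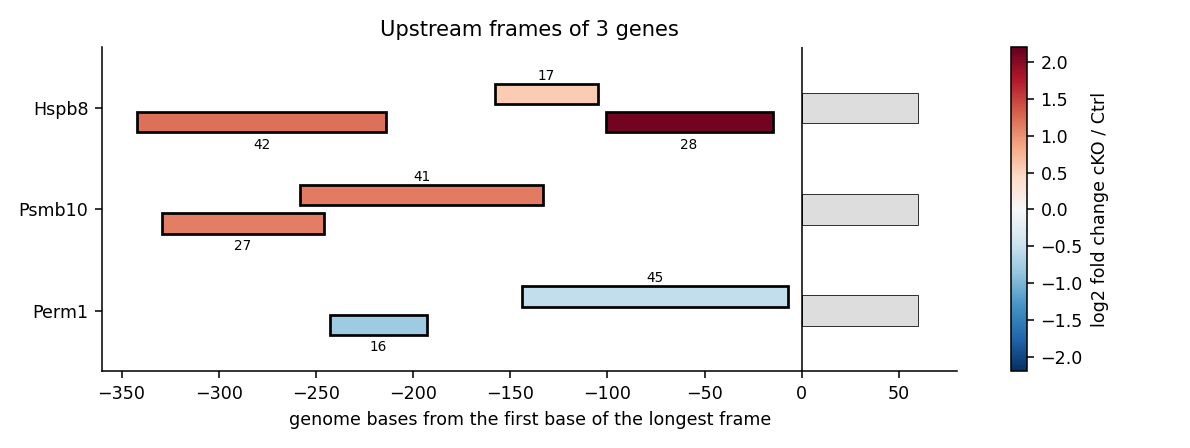
Upstream frames of Hspb8, Psmb10 and Perm1, drawn to scale in genome bases from the first base of the longest frame (grey box, first 60 bases only), with their codons and the log2 fold change, cKO over Ctrl, as colour; thick outlines mark calls. All 3 Hspb8 and both Psmb10 frames are higher in cKO, and both Perm1 frames are lower.

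The largest falls among named genes with a mean of at least 1 CPM were in Fhl2 (18 codons, -1.80 ± 0.31), Il15 (22 codons, an interleukin, -1.77 ± 0.40), Gpr22 (20 codons, a receptor of the heart, -1.54 ± 0.30), Phospho2 (37 codons, -1.37 ± 0.30), Pex2 (37 codons, a peroxisome assembly factor, -1.28 ± 0.33), Pla2g16 (39 codons, a phospholipase, -1.24 ± 0.12), the transporter gene Slco2b1 (46 codons, -1.24 ± 0.34) and Asb2 (38 codons, a ubiquitin ligase subunit of muscle, -1.23 ± 0.23). Fhl2, a LIM protein of the sarcomere, had 2 lower frames. That of 33 codons had 121 and 125 against 77.1 and 80.5 CPM (-0.64 ± 0.08), and the 18-codon frame 4.2 and 2.63 against 0.938 and 0.994 CPM. The main Fhl2 frame fell by 0.82 and its RNA by 0.54. The Pla2g16 frame ends 25 bases before the main frame and had 23.2 and 24.5 against 10.5 and 9.69 CPM, while the main frame had 188, 178, 169 and 160 CPM (-0.15 ± 0.08, adjusted p = 0.271). RNA of Phospho2, Pex2 and Slco2b1 was not called (adjusted p = 0.113, 0.733 and 0.889). Without 1 library, calls were lost for Il15 (Ctrl 2, 0.0602; cKO 1, 0.0675), Phospho2 (cKO 1, 0.0541), Pex2 (Ctrl 1, 0.104; cKO 1, 0.145) and Slco2b1 (Ctrl 2, 0.154; cKO 1, 0.0935; cKO 2, 0.112), the last also by DESeq2 (0.0621).

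To ask whether an upstream frame changed differently from the longest frame of its gene, the difference of both changes was tested in 1 model for 2592 upstream frames. It passed for 2 frames in the direction of the upstream frame (0.0772% of those tested) and for 1 in the other (0.0386%). The 25-codon frame of Acta2, the actin of smooth muscle, had 1.36 and 1.51 CPM in Ctrl and 3.93 and 3.10 in cKO. Its main frame had 904 and 1050 against 662 and 787 CPM, so that the upstream frame rose (1.29 ± 0.27) while the main frame (-0.43) and RNA (-0.24) fell; the difference was 1.73 ± 0.29 (adjusted p = 0.0159). Without cKO 1 the rise itself had an adjusted p of 0.0583. The pericyte and smooth muscle list summed to 649 and 608 CPM of RNA in Ctrl and 580 and 526 in cKO, with 0 of 3 genes called by edgeR, and its part in the Acta2 values was not tested. The 53-codon frame of Cystm1, a small membrane protein, had 0 footprints in both Ctrl libraries and 22 and 20 in cKO, with its main frame at 23.4 and 24.9 against 31.6 and 32 CPM. Set against a floor of 3 counts over both Ctrl libraries, the cKO level was at least 10.6-fold higher. This frame passed the count filter only through cKO. With every frame of at least 1 count tested, the adjusted p of the difference was 0.00673. That setting uses the same counts and is no independent support. The 24-codon frame of Ivns1abp, an actin-organising Kelch protein, had 142 and 96.5 against 86.3 and 101 CPM. Its main frame rose from 133 and 124 to 318 and 276 CPM (1.21 ± 0.09) with RNA at 0.14 (adjusted p = 0.0844), a difference of -1.54 ± 0.26 (adjusted p = 0.0159). The 3 differences were lost without cKO 1 for Acta2 and Ivns1abp (adjusted p = 0.132 and 0.1) and without Ctrl 2 for Cystm1 (0.0887), and DESeq2 called none of the 2592 (adjusted p = 0.0635 for each of the 3, 150 frames with an unadjusted p under 0.05, against 288 in edgeR).

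The number of such differences depended on the test. The 3 other settings used here were a filter of 50 counts per library, a replicate block and edgeR's diffSpliceDGE. The diffSpliceDGE test sets a frame against the other frames of its gene together, not against the longest frame alone. Positive and negative differences numbered 21 and 6 under the filter, 11 and 5 with the block in place of library terms, and 16 and 6 by diffSpliceDGE. With library totals they numbered 2 and 1, and with DESeq2 0 and 0. All settings use the same libraries, so frames shared between them gain no independent support. The same 10 frames passed under all 3 settings. Besides Acta2 and Ivns1abp these included, chosen after their values were seen, Eif4g2 (54 codons), Sorbs2, Ucp2, Fam208b, Pik3r1, Yap1 and Pla2g16, with adjusted p from 0.0889 to 0.166 in the test as designed. Ucp2, the mitochondrial uncoupling protein, had 69.8 and 62.1 against 56.1 and 68 CPM on a 36-codon frame. Its main frame rose from 39.1 and 46.3 to 92.7 and 88.8 CPM (1.08 ± 0.10), giving a difference of -1.18 ± 0.26 (adjusted p = 0.0937). The 10-codon frame of Yap1, the Hippo pathway coactivator, had 0.617 and 0.393 against 1.36 and 1.42 CPM, with its main frame at 74.2 and 68.7 against 56.2 and 61 CPM (difference 1.78 ± 0.38, adjusted p = 0.0889). In Eif4g2, an initiation factor itself made from a non-ATG start, the 54-codon frame had 10.9 and 11.5 against 12.5 and 15.6 CPM. The 700-codon frame listed as its longest had 91.4 and 71.1 against 43.1 and 48.3 CPM (difference 1.14 ± 0.27, adjusted p = 0.127). Whether that frame is the whole main coding sequence of Eif4g2 was not tested.

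**Figure D5:**
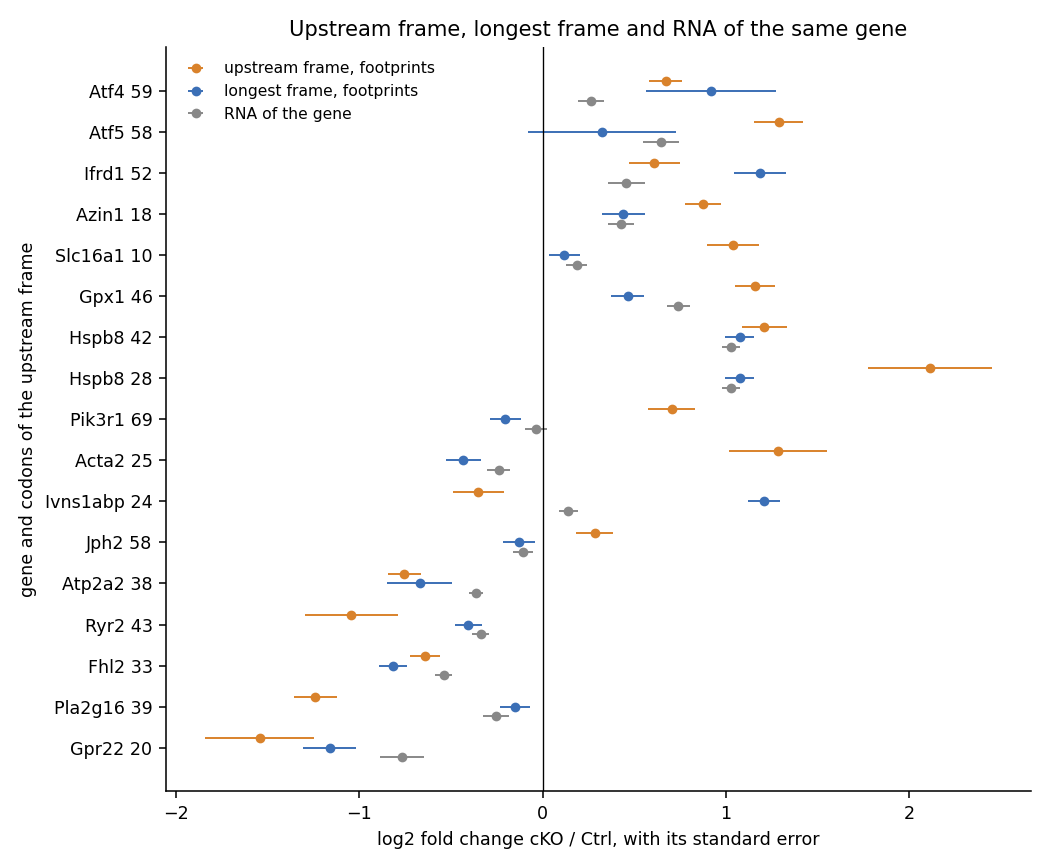
Log2 fold change, cKO over Ctrl, with its standard error, of the upstream frame, the longest frame and the RNA of the same gene for 17 named upstream frames. In Hspb8 (42 codons) and Fhl2 the 3 values lie close together, in Acta2 and Pik3r1 the upstream frame is higher while the longest frame lies below 0, and in Ivns1abp the longest frame alone is higher.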

How the data were processed

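The authors deposited, per the file headers, whole-number counts of footprints per reading frame (heart Ribo-seq) and of reads per gene (heart RNA-seq), with no normalization. The submitters' processing notes name GRCm38, Bowtie, Bowtie2, STAR and HISAT2 as aligners, cutadapt, featureCounts, StringTie and DESeq2; the frame caller, its start codons and the treatment of reads shared by overlapping frames are not given in the sources used here. Per the labels' protocols, a small RNA kit was used for Ribo-seq.

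Frame identifiers were read as gene, first position, last position and codons, and ties for the longest frame (19 genes) went to the first listed. Symbols came from a name table, on the identifier without its version for 833 frames; 45 frames had none. Sequences are RefSeq's (GRCm38.p6), read at the deposited positions. The 99 upstream frames that are also listed at the same positions under another gene have uncertain counts.

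Counts were tested with edgeR 4.0.16 in R 4.3.3 (filterByExpr, TMM, glmQLFit and glmQLFTest, Benjamini-Hochberg adjustment over all frames or genes tested, threshold 0.05). CPM use TMM factors, and a standard error is the log2 fold change over the square root of F. The difference from the longest frame was the interaction of frame and genotype with library terms. Tested on simulated data, 46% of 100 frames changed by 1 on the log2 scale and 88% of 100 changed by 2 were recovered among 17133 frames. The simulation gave every frame a dispersion of 0.01, set in advance and not estimated from these libraries. Recovery in frames that vary more may thus be lower. DESeq2 1.42.0, limma-voom (limma 3.58.1), diffSpliceDGE, other filters and scalings, other definitions of the upstream frames and leaving out each library were alternatives. Replicate numbers were not taken to pair libraries, since same-numbered Ribo libraries did not deviate together (r = 0.002; RNA, 0.026).

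Named frames were those of the listed genes with the lowest p, the 8 of highest level, the 8 largest called changes per direction at 1 CPM or more without overlap (predicted genes left out), those past the test against the longest frame, the 5 longest, the 5 densest and the gene with most frames, since 8 genes tied behind it. The members, lists and rules were chosen with earlier results of these data known, and the selenoprotein and mitochondrial lists after the table was seen. Some results are not reported here.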

Additional observations from a re-analysis of the deposited data

How the results depend on the processing

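With DESeq2, 63 upstream frames were higher and 40 lower. With every frame of at least 1 count tested, 99 were lower. Over the leave-one-out fits, in which a lone library is assumed to vary like the other group, 56 to 95 frames were higher and 28 to 73 lower, fewest without cKO 1. Differences from the longest frame numbered 21 and 6 under a filter of 50 counts per library in 1 genotype, 16 and 6 by diffSpliceDGE, 2 lower with at least 1 count, 0 and 0 by DESeq2, and 2 to 13 higher and 0 to 7 lower without 1 library. The diffSpliceDGE values are differences from the other frames of the gene together, not from the longest frame alone. With a replicate block instead of library terms the differences from the longest frame numbered 11 and 5. The replicate block gave 131 higher and 88 lower upstream frames, and the pairing check gave no ground for it. Host gene RNA was higher for 208 and lower for 244 of 2659 genes, 115 and 131 by DESeq2, and 119 to 184 and 135 to 250 without 1 library. The share of footprints kept its direction, at 0.018 to 0.0713 percentage points without 1 library.

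Of the 73 tested results for single frames, 460 of 498 values under other settings and 219 of 292 without 1 library kept direction and call. With library totals the sign turned for Smpx (0.013), the 11-codon frame of Atp2a2 (0.0054) and Btbd8 (0.053), and with the replicate block for Btbd8 (0.044), all near 0 and not called. Without 1 library the changes of 4 frames crossed 0: Smpx -0.18 to 0.051, Btbd8 -0.641 to 0.689, Fam126a -0.0151 to 0.0999 and Ucp2 -0.237 to 0.0461. Depth limits the frames with few footprints most, as their standard errors in the report show.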
